A study of Mus musculus with 9 samples.

Results

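The genes described here build and steer the vesicle traffic between endosomes, lysosomes, the Golgi and the cell surface: Rab GTPases and their numbered regulators, sorting nexins (Snx), vacuolar protein sorting genes (Vps) and charged multivesicular body proteins (Chmp). They were found on the array by probe identifiers that carry the NCBI gene number of a mouse gene whose symbol is Rab, Snx or Vps followed by a digit, Rabgap1, or any Chmp gene, with Snx30 and Chmp5 left out. This gave 62 probes for 53 genes, of 8127 genes that could be named by number. The 53 were 30 Rab genes with 37 probes, 8 Snx genes with 8 probes, 11 Vps genes with 13 probes and 4 Chmp genes with 4 probes. Of 143 protein-coding genes that meet the rule in the gene table, 52 had a probe. The remaining member, Rab10os, is a non-coding gene whose symbol meets the rule by its letters.

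Total RNA from brain of mice lacking CAIX (4 animals) and of wild-type mice (5 animals) was hybridised to single-colour Illumina bead arrays. All animals were 8 months old and on the C57BL/6 background, and no other allele or treatment is given for either group. CAIX (carbonic anhydrase IX, encoded by Car9) is a cell-surface enzyme that interconverts carbon dioxide and bicarbonate. The labels do not say how the allele was made, which brain region was taken or whether animals were littermates.

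The group labels are in conflict, and this bears on every comparison below. Sample titles and the genotype entries name different genotypes for 6 of the 9 samples, and 4 arrays lie under different samples in the authors' signal table and in their processed table. Titles were used, with arrays assigned to samples as the signal table's headers give them, which is 1 of 4 possible readings. Under all 4 readings only 3 arrays (knockout 1, wild type 1 and wild type 2) keep their group. No probe carried the gene number of Car9, so the targeted gene was not analysed here. A probe for the neomycin resistance gene, which many targeting vectors carry, was above background on 4 of 4 arrays titled knockout and on 0 of 5 titled wild type, but the labels do not say that this allele holds that gene. Its log2 signal was 9.90 to 10.56 on the arrays titled knockout and 6.78 to 6.82 on those titled wild type. The genotype entries name knockout 2, 3 and 4 wild type, and wild type 3, 4 and 5 knockout. Array knockout 4 stood apart: its median signal was 133.2 against 167 to 209.8 on the other arrays, and the trafficking probes deviated from their mean over the 9 arrays by 0.170 on the log2 scale on average there, against 0.072 to 0.110 elsewhere. Over all measured probes the same deviation was 0.165 on knockout 4 and 0.083 to 0.118 on the other arrays.

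Rab proteins are small GTPases that switch between an active, GTP-bound state on a membrane and an inactive, GDP-bound state in the cytosol. Exchange factors switch them on, GTPase-activating proteins switch them off, and each active Rab recruits effectors that move, tether or fuse one class of vesicle. Cargo that reaches the early endosome is sent back to the surface through recycling Rabs, retrieved by retromer and sorting nexins, or packed by the ESCRT machinery into late endosomes, which fuse with lysosomes through the HOPS tether. In neurons the same machinery serves synaptic vesicles, receptor recycling at synapses and long-range transport in axons.

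A probe was counted as measured when at least 4 of the 9 arrays had it above background (detection p under 0.05). Of the 62 trafficking probes 43 were measured, for 39 genes, and 37 of them (86%) were above background on all 9 arrays, against 76.5% of all 16375 measured probes. The other 19 probes left 14 genes without a measured probe: Rab18, Rab43, Rab20, Rab42, Rab9, Rab5a, Rab10os, Rab11fip1, Chmp4c, Vps37a, Vps4b, Vps39, Vps35l and Snx29. Rab5a, the early endosome Rab, was above background on 2 knockout arrays and 1 wild-type array. Vps4b and Snx29 were above background on 1 knockout array and 0 wild-type arrays, and Vps39 on 0 knockout arrays and 1 wild-type array. Further probes of the measured genes Rab8b, Vps53 and Rab27b were also above background on 0 arrays. For the unmeasured genes the array gives only signals that were mostly not above background, which does not show that the gene was silent.

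No trafficking probe passed the test of knockout against wild type. Of the 43 measured probes, 0 had a limma adjusted p under 0.05, where 4 of all 16375 measured probes did (0.0244%). At an unadjusted p under 0.05 there were 6 trafficking probes (14%), near the 11.5% of all measured probes. Of the 6, 4 were higher in knockout and 2 lower. Of the 1876 probes of the whole array with such a p, 1073 were higher and 803 lower. These were 6.55% and 4.9% of all measured probes. All values were on the neqc-normalized log2 scale, and differences are knockout minus wild type. Over the 43 probes 20 differences were above 0 and 23 below (46.5% above, against 49.8% of all measured probes). The median difference was -0.0044, against -0.0003 over all probes. The median size of a difference was 0.074, against 0.060 over all probes, and 27 of the 43 probes (62.8%, against 66.3% of all) differed by less than 0.1 in either direction. The 95% interval of the difference lay within 0.5 of 0 for 39 of the 43, and for 14206 of all 16375 measured probes. In brain tissue, fewer cells of a type and less RNA per cell cannot be told apart in any of these values.

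**Figure D1:**
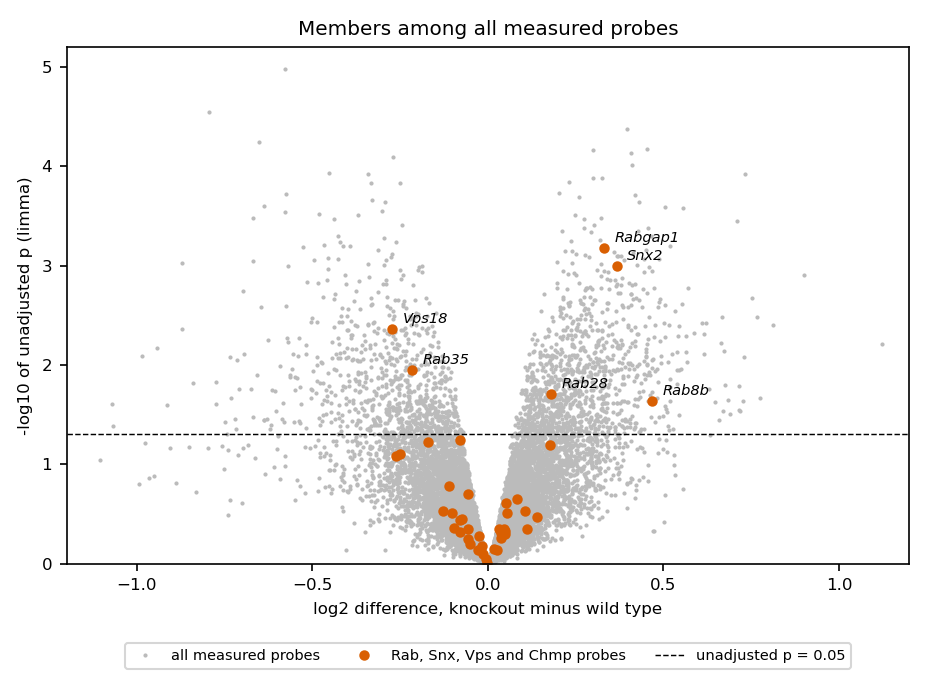
Each point is a measured probe. The horizontal axis is the log2 difference, knockout minus wild type, and the vertical axis is -log10 of the unadjusted p from limma. The 43 trafficking probes (orange) lie within the cloud of the 16375 measured probes (grey), and 6 lie above the dashed line at an unadjusted p of 0.05. There are 10 probes outside the axes.

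The promoter windows of 3 of the genes with the smallest p are shown: Rabgap1, whose starts differ in their motifs, Vps18, with the smallest p among probes lower in knockout, and Rab28, whose groups did not overlap. For Snx2, whose p was smaller than those of Vps18 and Rab28, no window is shown. RefSeq sequence of build GRCm38.p6 covers 250 bases before to 50 bases after each start, and 32 of the 39 measured genes had such a window. Capitals mark matches on either strand to CACGTG (the E-box bound by basic helix-loop-helix factors, which lysosomal genes often carry), ACGTG (the core of the hypoxia response element, held by every such E-box), the GC box GGGCGG, and the CCAAT box. Rabgap1 has a pair of windows, at chr2:37443035-37443334 and chr2:37452004-37452303, both on the plus strand.
Rabgap1, upstream start: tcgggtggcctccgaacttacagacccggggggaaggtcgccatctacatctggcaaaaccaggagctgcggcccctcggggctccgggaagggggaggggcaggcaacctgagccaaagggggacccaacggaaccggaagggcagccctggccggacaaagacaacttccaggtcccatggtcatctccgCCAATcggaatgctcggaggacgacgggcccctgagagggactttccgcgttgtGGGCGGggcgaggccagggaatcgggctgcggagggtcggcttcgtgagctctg
Rabgap1, downstream start: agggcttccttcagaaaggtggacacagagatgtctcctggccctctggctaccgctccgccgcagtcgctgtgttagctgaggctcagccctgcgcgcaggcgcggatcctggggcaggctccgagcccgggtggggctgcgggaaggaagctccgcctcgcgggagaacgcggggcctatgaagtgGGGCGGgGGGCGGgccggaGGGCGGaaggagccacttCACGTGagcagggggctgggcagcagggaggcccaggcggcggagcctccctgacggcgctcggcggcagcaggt
The Vps18 window lies at chr2:119288492-119288791 on the plus strand and the Rab28 window at chr5:41708130-41708429 on the minus strand.
Vps18: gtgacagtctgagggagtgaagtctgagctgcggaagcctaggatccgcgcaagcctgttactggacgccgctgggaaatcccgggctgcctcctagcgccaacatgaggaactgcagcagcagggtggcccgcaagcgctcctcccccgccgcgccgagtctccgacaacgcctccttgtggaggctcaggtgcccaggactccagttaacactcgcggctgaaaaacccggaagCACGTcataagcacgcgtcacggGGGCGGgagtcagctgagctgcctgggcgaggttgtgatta
Rab28: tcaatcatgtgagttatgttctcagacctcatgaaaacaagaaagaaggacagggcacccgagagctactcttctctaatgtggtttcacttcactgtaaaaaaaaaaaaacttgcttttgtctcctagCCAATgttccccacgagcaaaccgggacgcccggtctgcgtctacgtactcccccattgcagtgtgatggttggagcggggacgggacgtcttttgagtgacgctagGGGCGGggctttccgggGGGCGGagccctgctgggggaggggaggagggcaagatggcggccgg

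The downstream Rabgap1 window held 1 CACGTG and 3 GGGCGG, while the upstream one held 1 GGGCGG and 1 CCAAT. The Vps18 window held 1 ACGTG, read on the opposite strand, and 1 GGGCGG, and the Rab28 window held 2 GGGCGG and 1 CCAAT. Over the 40 windows of measured trafficking genes, CACGTG was found in 8 (20%), against 7.2% of all 32851 windows. ACGTG was found in 12 (30%, against 19.6%), GGGCGG in 31 (77.5%, against 35.7%) and CCAAT in 14 (35%, against 37.4%). The trafficking windows were also richer in G and C, with a median of 65.3% against 52.7%, so shares of G- and C-rich motifs are not like for like. The 32851 windows also include those of genes not measured here. A match is a description of letters and was not tied to any value on the arrays.

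The regulators and effectors held the trafficking probe of smallest p. Rabgap1 is a GTPase-activating protein that switches off Rab6 and related Rabs. Its log2 signal was 11.24, 11.41, 11.28 and 11.42 in the knockout brains 1 to 4, against 10.91, 11.01, 10.93, 11.19 and 10.99 in the wild-type brains 1 to 5. Every knockout array was above every wild-type array, the nearest being knockout 1 and wild type 4. The means were 11.34 ± 0.09 in knockout and 11.01 ± 0.11 in wild type (SD, n = 4 and 5), a difference of 0.33 (standard error 0.07, 95% interval 0.18 to 0.48), or 1.26-fold. That difference did not pass (limma adjusted p = 0.172, and 0.0729 to 0.406 on leaving out each array in turn). Rab11fip4, an effector that binds Rab11, was at 7.01, 7.02, 7.0 and 7.01 in knockout against 7.15, 7.12, 7.06, 7.01 and 7.0 in wild type, a difference of -0.057. The knockout arrays nearly coincided, at the level of the lowest wild-type arrays. Both groups lay near the floor of the scale, where the lowest mean level of a measured probe was 6.88. Whether the floor set this small spread was not tested. Rab3gap2, the non-catalytic subunit of the Rab3 GTPase-activating complex, differed by -0.074, and Rab3il1, an exchange factor, by 0.033. Rab3il1 was above background on only 3 knockout arrays and 1 wild-type array.

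Among the 12 measured probes of early endosome and recycling Rabs, 7 were higher and 5 lower, with a median of 0.032 and a range of -0.26 to 0.47. Rab8b, which carries cargo to the cell surface, had the largest difference of all 43 probes and also the largest spread between arrays. Its signal was 9.54, 9.78, 9.83 and 9.15 in knockout, against 9.20, 9.13, 8.75, 9.48 and 8.99 in wild type. Knockout 4 lay among the wild-type arrays, and wild type 4 lay close to knockout 1, so the groups overlapped. The difference was 0.47 (standard error 0.17, 95% interval 0.08 to 0.85, limma adjusted p = 0.345), with a pooled within-group SD of 0.29, larger than that of 93.4% of all measured probes. Its paralogue Rab8a had 2 measured probes. One gave 7.41, 7.27, 7.23 and 7.34 in knockout against 7.27, 7.39, 7.30, 7.20 and 7.20 in wild type (difference 0.042), and the other gave 7.06, 7.07, 7.06 and 7.27 in knockout against 7.13, 7.09, 7.02, 7.07 and 7.08 in wild type (difference 0.037). The groups overlapped on both. A difference between Rab8b and Rab8a was not tested, and a further Rab8b probe was above background on 0 of 9 arrays.

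Rab35, which returns endocytosed cargo to the plasma membrane, had the second smallest p among probes lower in knockout. It read 10.58, 10.43, 10.34 and 10.44 in knockout, against 10.58, 10.65, 10.71, 10.55 and 10.83 in wild type. Only knockout 1 reached into the wild-type range, at its lower end. The difference was -0.22 (standard error 0.07, 95% interval -0.37 to -0.06, limma adjusted p = 0.274). Rab12, which directs transferrin receptor from recycling endosomes to lysosomes, read 8.48, 8.45, 8.47 and 8.05 in knockout against 8.26, 8.64, 8.57, 8.75 and 8.89 in wild type, a difference of -0.26. Here 3 knockout arrays nearly coincided and knockout 4 lay well below them, and without it the difference was -0.16. Rab22a, an early endosome Rab, read 7.16, 7.23, 7.23 and 7.26 in knockout against 7.20, 7.0, 7.08, 7.32 and 7.08 in wild type, a difference of 0.084 with the groups overlapping.

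The fast-recycling pair Rab4a and Rab4b gave differences of opposite sign, both with 95% intervals that included 0. Rab4b read 8.14, 8.18, 7.95 and 8.71 in knockout against 8.02, 8.33, 8.21, 7.98 and 8.11 in wild type. Knockout 4 alone lay above all other arrays, and the difference of 0.11 became -0.043 without it. Rab4a differed by -0.080. The recycling endosome Rabs Rab11a and Rab11b differed by -0.055 and -0.096. For Rab11b the sign also turned without knockout 4, to 0.039. Rab14, which moves between Golgi and endosomes, differed by 0.026 and Rab21, an early endosome Rab of integrin traffic, by 0.056.

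The Rabs grouped here as late endosome and lysosome-related had 5 measured probes, 3 higher and 2 lower, with a median of 0.045. Rab28 was placed among them by a list of roles, and its place in the cell was not tested. Rab28, whose human gene is mutated in cone-rod dystrophy, read 11.47, 11.41, 11.44 and 11.68 in knockout, against 11.37, 11.31, 11.32, 11.21 and 11.39 in wild type. All knockout arrays were above all wild-type arrays, but knockout 2 and wild type 5 were separated by a narrow gap. The difference was 0.18 (standard error 0.06, 95% interval 0.04 to 0.32, limma adjusted p = 0.33), and it was 0.12 without knockout 4, the highest array. Rab7, the main Rab of late endosomes, had 3 measured probes whose differences of 0.050, -0.027 and -0.025 straddled 0. Only the first lay well above the floor of the scale, with group means of 11.50 and 11.45. The other probes had group means of 7.06 to 7.21. The first of them read 11.44, 11.68, 11.54 and 11.35 in knockout against 11.51, 11.38, 11.56, 11.45 and 11.38 in wild type. A second read 7.37, 7.16, 7.15 and 7.05 in knockout against 7.07, 7.39, 7.21, 7.19 and 7.19 in wild type. The groups overlapped on these 2 probes. The third read 7.08, 7.06, 7.11 and 6.98 in knockout against 7.05, 7.09, 7.05, 7.11 and 7.13 in wild type, again overlapping. Rab24, linked to autophagy, differed by 0.045.

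All 4 measured probes of secretory and synaptic vesicle Rabs were lower in knockout, with a median of -0.067, and the 95% interval of each difference included 0. Rab3a, the Rab of synaptic vesicles, differed by -0.079 (95% interval -0.32 to 0.16). Rab26, found on synaptic and secretory vesicles, had 2 measured probes. One read 10.13, 9.51, 9.88 and 9.65 in knockout against 10.05, 9.88, 9.94, 9.85 and 9.88 in wild type, a difference of -0.13. The other read 7.25, 7.01, 7.32 and 7.17 in knockout against 7.32, 7.20, 7.16, 7.19 and 7.35 in wild type, a difference of -0.056. On both, the knockout arrays spread more widely than the wild-type arrays and enclosed all or most of them. Rab27b, of secretory granules, differed by -0.013. Rab6b, the neuronal form of the Golgi Rab6, was the only measured ER and Golgi Rab. It read 12.38, 12.43, 12.52 and 11.90 in knockout against 12.32, 12.12, 12.35, 12.53 and 12.23 in wild type. Knockout 4 was the lowest array, the other knockout arrays lay within the wild-type range, and the difference was -0.0013 (95% interval -0.29 to 0.29).

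**Figure D2:**
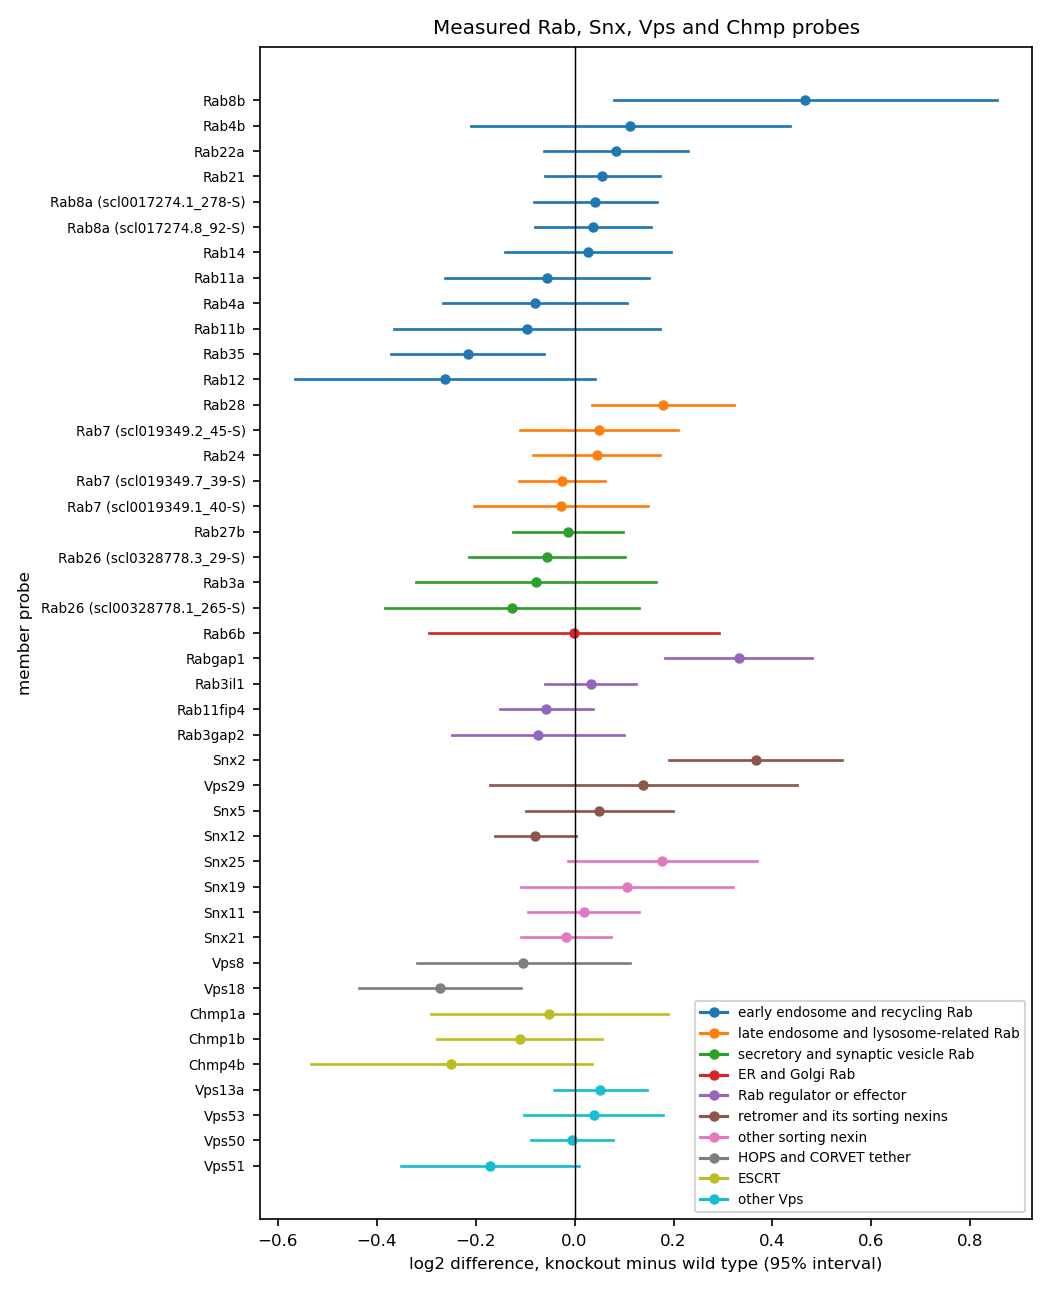
Points are log2 differences, knockout minus wild type, of the 43 measured trafficking probes and lines are their 95% intervals from limma, coloured by role. The intervals of 6 probes (Rab8b, Rab35, Rab28, Rabgap1, Snx2 and Vps18) leave out 0 before adjustment, and the other 37 include it.

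Retromer lifts cargo out of endosomes on membrane tubes shaped by sorting nexins. Of the 4 measured probes of retromer and its sorting nexins, 3 were higher in knockout. Snx2, a membrane-bending sorting nexin that works with retromer, read 10.08, 10.24, 10.19 and 10.11 in knockout, against 9.65, 9.86, 9.63, 9.98 and 9.81 in wild type. The knockout arrays lay close together and above every wild-type array, and wild type 4 came nearest. The means were 10.15 ± 0.07 in knockout and 9.79 ± 0.15 in wild type (SD, n = 4 and 5), a difference of 0.37 (standard error 0.08, 95% interval 0.19 to 0.54), or 1.29-fold. This did not pass either (limma adjusted p = 0.175, and 0.0863 to 0.416 on leaving out each array in turn). Its partner Snx5 differed by 0.050, and by -0.0080 without knockout 4. Vps29, a core retromer subunit, read 10.62, 10.57, 10.56 and 11.21 in knockout against 10.39, 10.68, 10.55, 10.69 and 10.71 in wild type. Its difference of 0.14 came with knockout 4, which lay above all other arrays, and was -0.019 without it. Snx12, a small sorting nexin related to Snx3, read 7.11, 7.12, 7.04 and 7.03 in knockout against 7.17, 7.11, 7.12, 7.18 and 7.18 in wild type. The spread was the smallest of the 43 probes, the groups overlapped at knockout 2 and wild type 2, and the difference was -0.079. This probe lay near the floor of the scale (lowest mean level of a measured probe 6.88), and the floor's part in the small spread was not tested.

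Of the 4 other measured sorting nexins, 3 were higher and 1 lower. Snx25, which also carries a regulator of G-protein signalling domain, read 7.36, 7.5, 7.62 and 7.83 in knockout against 7.33, 7.39, 7.43, 7.45 and 7.39 in wild type. Only knockout 1 fell within the wild-type range, and the difference was 0.18 (95% interval -0.01 to 0.37), or 0.093 without knockout 4. Snx19 read 8.89, 9.14, 9.08 and 9.31 in knockout against 8.80, 9.07, 9.14, 8.91 and 9.07 in wild type, a difference of 0.11 with overlapping groups. Snx11 differed by 0.019 and Snx21 by -0.018. Snx21 was above background on only 2 knockout arrays and 2 wild-type arrays.

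The groups that do not overlap were thus Rabgap1, Snx2 and Rab28, 3 of the 43 probes (6.98%), against 3.68% of all measured probes. All 3 were higher in knockout.

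**Figure D3:**
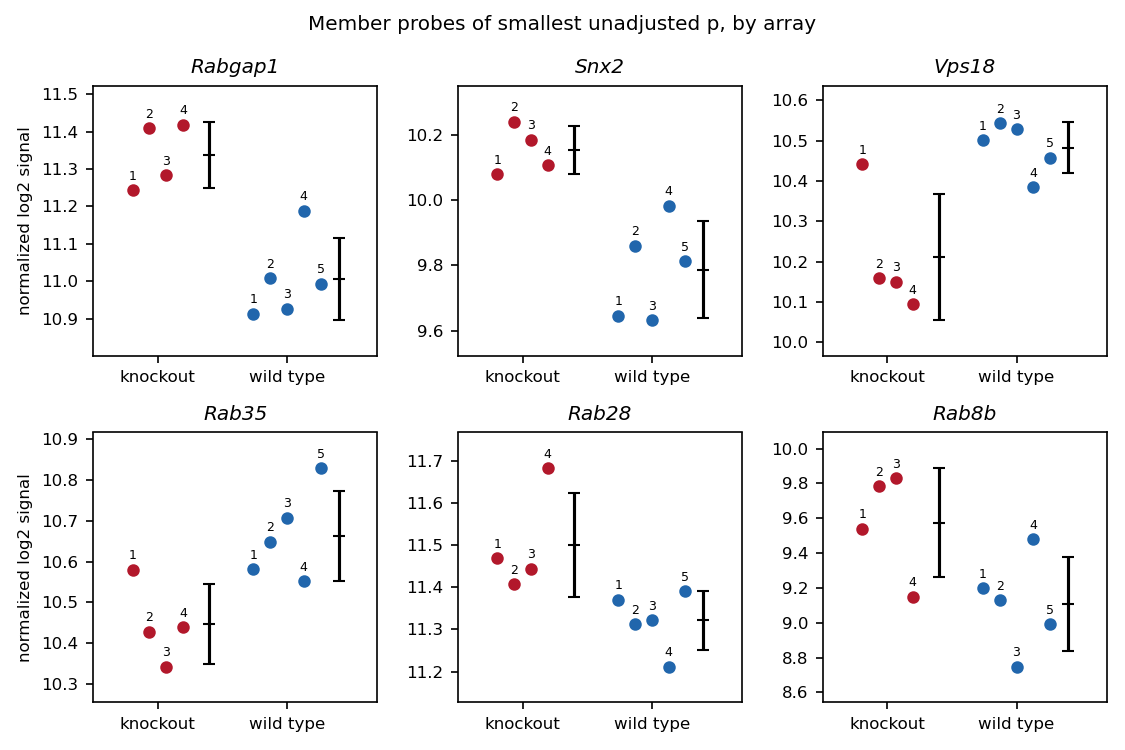
Each panel shows the normalized log2 signal of a trafficking probe on every array, knockout (red) left of wild type (blue), with array numbers; bars are the mean and SD of each group (n = 4 and 5). The vertical axes differ between panels and do not start at 0. Knockout and wild type are separated for Rabgap1, Snx2 and Rab28 and overlap for Vps18, Rab35 and Rab8b.

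Vps18 is a core subunit shared by the HOPS and CORVET tethers, which hold late and early endosomes to their fusion partners. It read 10.44, 10.16, 10.15 and 10.09 in knockout, against 10.50, 10.54, 10.53, 10.38 and 10.46 in wild type. Of the knockout arrays 3 lay below all wild-type arrays, while knockout 1 lay among the wild-type ones. The means were 10.21 ± 0.16 in knockout and 10.48 ± 0.06 in wild type (SD, n = 4 and 5), a difference of -0.27 (standard error 0.07, 95% interval -0.44 to -0.11, limma adjusted p = 0.23). Without knockout 1 the difference was -0.35 and passed (limma adjusted p = 0.0395), when 48 probes of the whole array passed. Vps8, found only in CORVET, differed by -0.10 and was the only other measured tether subunit of this kind.

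All 3 measured ESCRT probes were lower in knockout, with a median of -0.11, and none passed. They encode subunits of ESCRT-III, the filament that pinches membranes off from the inside. Chmp4b, its main filament subunit, read 8.64, 8.14, 8.35 and 8.44 in knockout against 8.57, 8.90, 8.53, 8.39 and 8.82 in wild type, a difference of -0.25 (95% interval -0.53 to 0.03). Knockout 1 lay among the wild-type arrays and wild type 4 among the knockout arrays. Chmp1b read 8.27, 8.09, 8.03 and 8.15 in knockout against 8.33, 8.35, 8.25, 8.26 and 8.04 in wild type, a difference of -0.11. Knockout 1, 2 and 4 lay within the wild-type range, and wild type 5 was nearly as low as knockout 3, the lowest knockout array. Chmp1a differed by -0.051, with knockout 4 above all other arrays at 10.04.

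The remaining Vps probes split evenly. Vps51 and Vps53 are subunits of the GARP and EARP complexes, which return vesicles from endosomes to the Golgi and to recycling endosomes, and Vps50 belongs to EARP. Vps51 read 9.34, 9.09, 9.0 and 9.31 in knockout against 9.25, 9.35, 9.47, 9.39 and 9.30 in wild type, a difference of -0.17 (95% interval -0.35 to 0.01). The knockout arrays fell into a pair within the wild-type range and a pair below it. Vps53 differed by 0.038 and Vps50 by -0.0044. Vps50 was above background on only 1 knockout array and 3 wild-type arrays. Vps13a, a lipid-transfer protein whose human gene is mutated in chorea-acanthocytosis, read 6.99, 7.01, 7.11 and 6.97 in knockout against 6.90, 6.99, 6.97, 7.01 and 6.97 in wild type, a difference of 0.052 with overlapping groups.

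**Figure D4:**
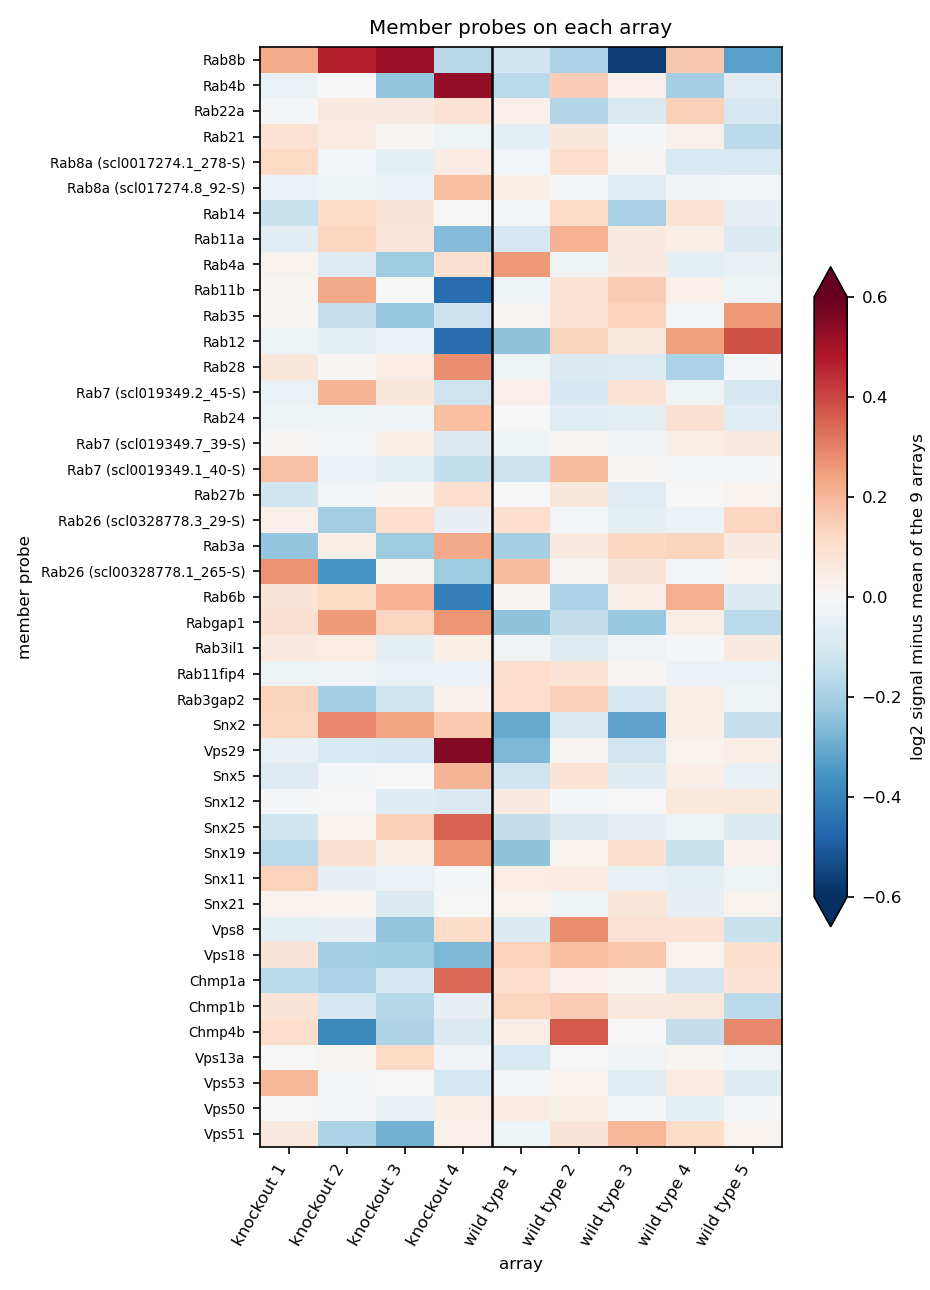
Each row is a measured trafficking probe, each column an array, knockout left of wild type, and the colour is the log2 signal minus that probe's mean over the 9 arrays, with red above and blue below the mean. Column knockout 4 holds the strongest colours for Rab4b, Vps29, Chmp1a, Rab11b, Rab12 and Rab6b, and the rows of Rabgap1 and Snx2 are red on all 4 knockout arrays.

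The single arrays had a visible share in these values. Wild type 4 was the wild-type array nearest the knockout mean for Rabgap1, Snx2, Vps18, Rab35 and Rab8b, and the farthest from it for Rab28. Knockout 1 was the knockout array nearest the wild-type mean for Rabgap1, Snx2, Vps18 and Rab35. In the signal table knockout 1 stood among the first 4 columns, with wild type 1, 2 and 3. With column order as a covariate, the differences were 0.28 for Rabgap1, 0.31 for Snx2 and -0.21 for Vps18. They were -0.20 for Rab35, 0.18 for Rab28 and 0.41 for Rab8b. In that fit 5 trafficking probes had an unadjusted limma p under 0.05, as did 8.76% of all probes. What column order stands for was not tested. On leaving out each array in turn, 18 of the 43 differences changed sign at least once and 36 moved by over 1.5 times. The differences of Rabgap1, Snx2, Vps18, Rab35 and Rab8b moved by less than that and kept their sign. The pooled within-group SD had a median of 0.113 over the 43 probes and 0.107 over all measured probes. It ran from 0.038 for Snx12, a probe near the floor of the scale, to 0.29 for Rab8b.

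With groups from the genotype entries, 4.09% of all measured probes had an unadjusted limma p under 0.05, and 1 of the 43 trafficking probes did (Rab12), with 0 past the threshold. All 6 probes named first above then had the opposite sign: the difference was -0.12 for Rabgap1, -0.13 for Snx2, 0.16 for Vps18, 0.18 for Rab35, -0.095 for Rab28 and -0.23 for Rab8b. The genotype entries exchange knockout 2, 3 and 4 with wild type 3, 4 and 5, so opposite signs follow largely from the regrouping itself. Over the 43 probes 33 had a sign opposite to that by title, and the same count over all measured probes was not made. Leaving out any single array, which exchanges no labels, turned at most 9. Through the headers of the processed table, the 6 differences were smaller in size than by title in both readings, and 0 trafficking probes had an unadjusted p under 0.05 in either.

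**Figure D5:**
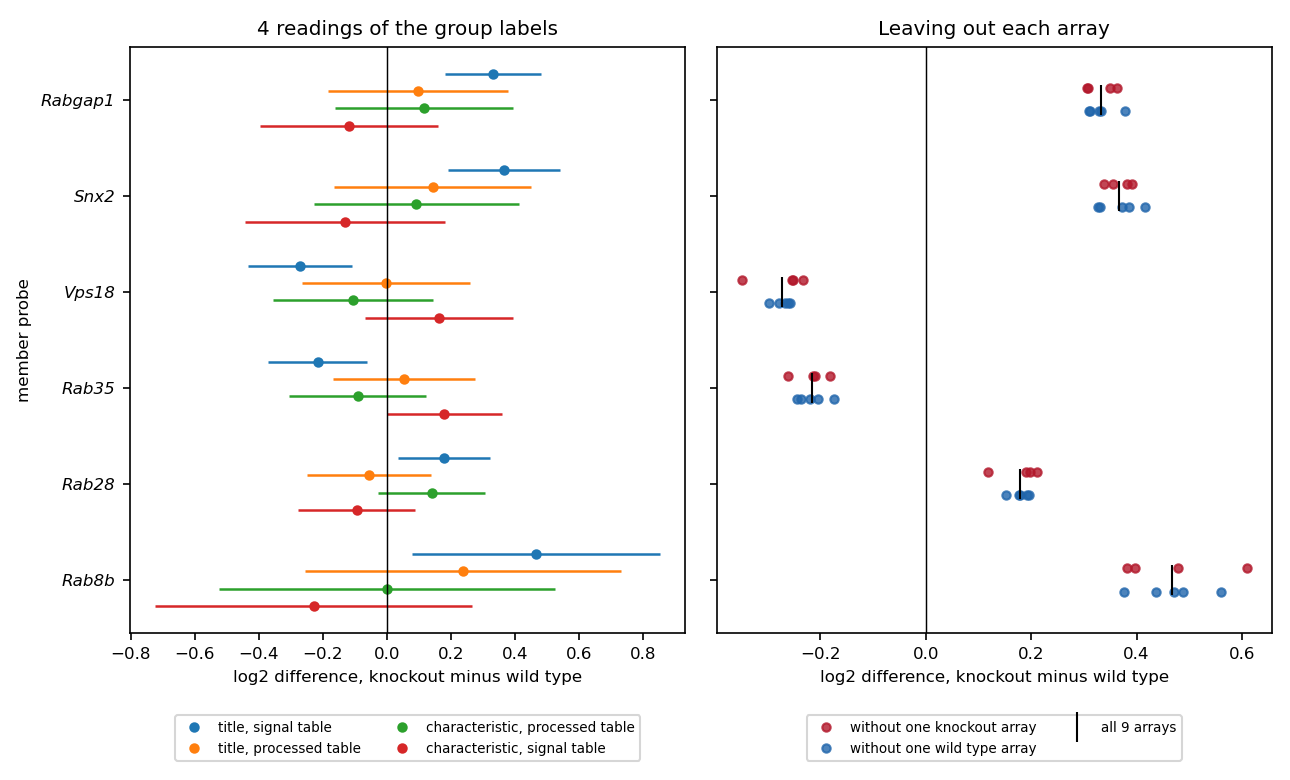
The left panel gives the log2 difference, knockout minus wild type, and its 95% interval for 6 trafficking probes under the 4 readings of the labels; the right panel gives the same difference by title with each array left out (red for a knockout array, blue for a wild-type array) and with all 9 arrays (black line). Signs are kept on leaving out an array and turn between readings of the labels, which exchange arrays between the groups.

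Other genes of the pathway were looked at through a list of 156 Rab regulators, SNAREs, coats and adaptors, ESCRT partners, tethers and Arf GTPases. Of these 72 had a probe and 52 were measured. By title 23 were higher and 29 lower in knockout, 0 passed, and the median was -0.0061. At an unadjusted limma p under 0.05 there were 6 higher and 4 lower (19.2%, against 11.5% of all probes). Each of these genes was read by a single probe, so a share of genes stands beside a share of probes. Among the higher ones were Napb and Napg, the SNAP proteins that load the SNARE-disassembling ATPase Nsf, with differences of 0.51 and 0.21; Exoc1 of the exocyst tether with 0.37; Arl8b of lysosome transport with 0.32; and Gdi2, which extracts inactive Rabs from membranes, with 0.17. The 4 lower ones were Rin1, a Rab5 exchange factor, with -0.43; Arf5 with -0.37; Ap2a1 of the clathrin adaptor at the plasma membrane with -0.23; and Exoc8, also of the exocyst, with -0.19.

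Markers of cell types were read as a check on the tissue. Of 6 measured neuron genes 1 was higher and 5 lower, with mean log2 levels of 9.82 to 10.12 on knockout arrays and 9.94 to 10.17 on wild-type arrays. All 5 oligodendrocyte genes were lower, 0 past the threshold, with a median of -0.33 and levels of 8.56 to 8.91 in knockout and 8.82 to 9.44 in wild type. All 4 astrocyte genes were lower too, with a median of -0.17. Of 2 choroid plexus genes 1 was higher and 1 lower, and both of 2 meningeal genes were higher (median 0.38), with levels of 7.88 to 10.06 in knockout and 8.28 to 9.19 in wild type. Microglia and endothelium had 2 measured genes each, 1 higher and 1 lower in both lists, and blood had 3, of which 2 were higher and 1 lower. The single measured gene of other tissues differed by 0.0088. None of these marker genes passed the threshold, and their part in the trafficking differences was not tested.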

How the data were processed

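Each brain RNA was run on a single-colour Illumina array, with scanner and software not given in the sources used here. For every probe, the authors deposited linear bead intensity values without normalization, per the file headers. A detection fraction was deposited with it, named a p-value per the file headers. Since it increased with intensity (rank correlations of 0.992 and above), it was subtracted from 1 before use. The authors also deposited log2 values, which quantile normalization and log2 of the intensities recovered to within 0.0051. That is a calculation, since no header or label records the authors' steps.

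The function neqc of limma 3.58.1 (R 4.3.3) took the intensities of 46116 probes, 4 control rows left out, through normexp background correction with offset 16, quantile normalization and log2. The 16375 probes above background (detection p under 0.05) on 4 or more of the 9 arrays were kept. Knockout (n = 4) was compared with wild type (n = 5) by limma's lmFit and eBayes; p-values were two-sided and adjusted by Benjamini-Hochberg over all kept probes, with 0.05 as the threshold. The number of arrays limits the precision. The design text counts animals, so each array was treated as 1 animal.

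Probe identifiers come without gene names. A number in identifiers of one format was read as an NCBI gene number and looked up in a RefSeq table of GRCm38.p6: 81.1% of 10024 numbers were found, against 42.5% to 45.9% after shifting them by 1 to 3. The naming is therefore an inference, and 28.3% of kept probes had a name. Different probes of a gene that meets the rule were kept apart, while each gene of the other lists was read by a single probe. Which transcript a probe reads was not analysed here, so related genes (Rab8a and Rab8b, Rab11a and Rab11b) may share signal.

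The trafficking genes, the other lists and the tests were chosen with earlier results of these data known, so no test was made over a list. Every kept trafficking probe is named with its difference, and genes of the other lists are mostly given as counts. Of the other trafficking genes at an unadjusted p under 0.05, 1 is counted but not reported here. The value on every array is given for the 16 probes of smallest p, the 6 of largest within-group SD and each gene with several kept probes. The 4 promoter motifs were chosen after the files were seen. The per-probe fit was tested on simulated data. Alternatives were the other label readings, the replicate block, other filters, background corrections, normalizations and priors, array weights, Xist as a covariate, the authors' log2 values and leaving out each array; 2 on column order were added after seeing the data.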

Additional observations from a re-analysis of the deposited data

Results flagged for a closer look

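In each group of arrays, the highest and lowest array of every measured trafficking probe was set against the others (Dixon's ratio). Of 86 groups looked at, 6 held an array far from the rest, and chance gives about 1 in 20. Of these, 5 were array knockout 4. Chmp1a read 10.04 there, with the nearest other knockout array at 9.59. Vps29 read 11.21 there, with the nearest at 10.62. Rab24 read 9.35 there, with the nearest at 9.15, and 1 of the Rab8a probes read 7.27, with the nearest at 7.07. Rab12 was lower there, at 8.05, with the nearest at 8.45. The remaining one was Rab3a on wild type 1, at 10.45, with the nearest other wild-type array at 10.70. Their cause was not tested.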

How the results depend on the processing

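With 26 other settings, 2 of them chosen after seeing the data, no trafficking probe passed the limma threshold except Vps18 without knockout 1 (0 to 1 on leaving out each array). Trafficking probes with an unadjusted p under 0.05 numbered 6 by title, 5 to 10 on leaving out each array, 1 by genotype entry and 0 through the processed table with either label, where 3.76% and 2.39% of all probes had such a p. The probes past the threshold over the whole array numbered 4 by title and 2 to 48 on leaving out each array (48 without knockout 1, 7 without knockout 3). They numbered 0 by genotype entry, 0 and 0 through the processed table, 0 among probes detected on all 9 arrays (1622 at an unadjusted p under 0.05), 11 without background correction, 2 with median scaling, 9 with a mean-dependent prior, 2 with Xist (high on 3 arrays) as a covariate, 13 with the authors' log2 values, 2 with column order as a covariate and 0 in the last 5 columns alone. The median of the trafficking differences stayed between -0.0254 and 0.0155, within its spread between replicates (SD 0.0227). The replicate numbers did not pair the arrays: deviations of same-numbered arrays correlated at 0.10, 0.089, -0.31 and 0.011, and 1 of 4 knockout arrays correlated best with its own number. With the replicate block 1 probe passed, 0 of them trafficking probes, and 4 trafficking probes had an unadjusted p under 0.05. With array weights Rab28 differed by 0.13, less than in the main fit, and Rab8b by 0.61, more than in the main fit. In that setting 8 trafficking probes had an unadjusted limma p under 0.05, as did 15.5% of all probes. Probes near background limit the small differences: the 19 unmeasured probes carry no comparison. The Rab8a probes, the lower Rab26 probe, Rab22a, Rab27b, Snx5 and Vps13a were measured but lay near the floor of the scale. Their group means were 6.97 to 7.31.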
